A study of Homo sapiens with 14 samples.

Results

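The 10 genes described here encode the 8 subunits of the 2 condensin complexes, DNA topoisomerase II alpha (TOP2A) and the Ki-67 protein (MKI67). SMC2 and SMC4 form the core that both complexes share, NCAPH, NCAPG and NCAPD2 complete condensin I, and NCAPH2, NCAPG2 and NCAPD3 complete condensin II. They were taken by symbol, as 10 of the 78686 gene identifiers in each library, and all 10 passed the filter on low counts in both sets of libraries.

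Condensins are ATP-driven protein rings that extrude loops of DNA and so shorten and stiffen chromosomes for mitosis. Condensin II is nuclear throughout the cell cycle, whereas condensin I reaches chromosomes after the nuclear envelope breaks down. TOP2A passes DNA strands through one another and untangles sister chromatids, and Ki-67 coats mitotic chromosomes and keeps them apart. TOP2A and MKI67 are textbook markers of cycling cells, with mRNA that peaks in G2 and mitosis.

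RNA was sequenced from HCT116, a human colon carcinoma line, carrying osTIR1(F74G) and SAF-A (the product of HNRNPU) tagged with mAID and Halo. In such cells the ligand 5-Ph-IAA directs the tagged protein to degradation, so every group, vehicle included, carried the tag and osTIR1(F74G). There were 7 groups of 2 libraries. The time-course set held vehicle (DMSO), 5-Ph-IAA for 3 h and 5-Ph-IAA for 12 h. The Nutlin set held 5-Ph-IAA with Nutlin, Nutlin (an MDM2 inhibitor that stabilises p53) and 5-Ph-IAA, each with 3 h in its title, and a vehicle of its own, so its 3 comparisons share that vehicle. The labels do not say whether the cells are 1 clone, or how the 3 h were divided between the agents where both were given.

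The deposited expected counts summed to between 12646787 and 35140464 per library, apart from replicate 2 of 12 h with 3535163, in which the 10 genes had 244 to 2079 counts. HNRNPU mRNA averaged 115.7 ± 8.04 TPM in vehicle, 115.6 ± 7.68 TPM at 3 h and 156.6 ± 4.82 TPM at 12 h of the time course (SD, n = 2 each), and was higher at 12 h (log2 fold change 0.31 ± 0.06 SE, adjusted p = 0.00744). The mRNA does not show whether the protein was lost. CDKN1A, the p53 target that encodes p21, rose with Nutlin both with 5-Ph-IAA (1.17 ± 0.09 on the log2 scale, adjusted p = 0.000149) and without it (1.41 ± 0.09, adjusted p = 3.16e-05). MDM2, another p53 target, was at 0.57 and 0.54 in the same comparisons and did not pass (adjusted p = 0.0603 and 0.0661). EPCAM, KRT8, KRT18 and KRT19 were at 10 TPM or more in all 14 libraries, whereas CDX1 was listed at 0 and VIL1 and LGALS4 stayed under 1 TPM. Of 9 markers of other cell types, 8 were under 1 TPM everywhere and COL1A1 reached 1.91 TPM.

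Promoter windows from RefSeq on GRCh38.p14, from 250 bases before to 50 bases after an annotated start, were found for 9 of the 10 genes, as 12 windows; NCAPH2 is named only. The windows of NCAPG, TOP2A and MKI67 are shown because these genes, all known for mRNA that peaks late in the cycle, moved in opposite directions at 12 h. The NCAPG window is chr4:17810729-17811028 on the plus strand, the TOP2A window chr17:40417847-40418146 on the minus strand and the MKI67 window chr10:128126374-128126673 on the minus strand. Each is written 5′ to 3′ along the gene, with capitals marking the cell-cycle homology region (CHR, TTTGAA, or TTCAAA on the other strand) and the CCAAT box (CCAAT, or ATTGG on the other strand).
NCAPG: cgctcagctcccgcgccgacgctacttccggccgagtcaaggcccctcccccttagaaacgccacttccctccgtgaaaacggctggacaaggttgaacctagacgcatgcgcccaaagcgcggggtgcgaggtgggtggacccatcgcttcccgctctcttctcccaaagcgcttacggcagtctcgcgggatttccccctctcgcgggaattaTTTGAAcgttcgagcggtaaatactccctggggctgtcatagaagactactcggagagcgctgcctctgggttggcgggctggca
TOP2A: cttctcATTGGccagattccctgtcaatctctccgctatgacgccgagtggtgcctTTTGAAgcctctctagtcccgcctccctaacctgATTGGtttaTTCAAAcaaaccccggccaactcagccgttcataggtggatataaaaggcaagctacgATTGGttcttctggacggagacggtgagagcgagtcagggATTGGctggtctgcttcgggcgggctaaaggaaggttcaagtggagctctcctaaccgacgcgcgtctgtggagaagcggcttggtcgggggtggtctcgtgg
MKI67: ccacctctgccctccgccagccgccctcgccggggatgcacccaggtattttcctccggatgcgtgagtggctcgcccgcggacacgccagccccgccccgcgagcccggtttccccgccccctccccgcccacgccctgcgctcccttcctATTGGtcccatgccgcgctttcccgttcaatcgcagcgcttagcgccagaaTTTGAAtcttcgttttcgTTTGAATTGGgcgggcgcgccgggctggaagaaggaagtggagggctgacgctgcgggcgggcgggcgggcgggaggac
The CHR is the element through which DREAM and B-MYB complexes act on many genes of G2 and mitosis, and NF-Y binds CCAAT boxes. MKI67 held 2 CHR matches, beginning at positions -47 and -29 from the start, and 2 CCAAT boxes, 1 of which shares 1 base with a CHR. TOP2A held 2 CHR matches and 4 CCAAT boxes, and NCAPG held 1 CHR, at -35, and no CCAAT box. A CHR (searched as TTTGAA and TTCGAA on both strands, found only as TTTGAA) stood in 8 of the 12 windows, from 8 of the 9 genes, against 16.4% of all 35116 windows, and NCAPH had none. A CCAAT box stood in 5 of the 12 windows, from 5 genes, against 34.6% of all windows, so that share is near the background. An E2F motif (TTTGGCGC, TTTCCCGC or TTTCGCGC, both strands) stood in 1 of the 12 windows, of NCAPD3, against 2.74% of all windows. These matches describe the letters and are not evidence of binding.

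Levels between genes were compared per length, as the TPM that the authors deposited. Over the 14 libraries TOP2A had 37.8 to 63.1 TPM (median 50.6), NCAPD2 40.0 to 67.7 TPM (52.9) and SMC4 38.6 to 64.6 TPM (47.2). NCAPG, MKI67, NCAPH2 and NCAPH followed with medians of 40.9, 39.3, 36.2 and 32.2 TPM, and neighbours in this order of 7 genes overlapped in range, whereas NCAPH lay wholly below TOP2A, NCAPD2 and SMC4. NCAPD3 (20.7 TPM), NCAPG2 (19.3 TPM) and SMC2 (11.1 TPM) had the lowest medians, and SMC2, at 9.30 to 12.6 TPM, stayed below every value of the other 9 genes. SMC4 mRNA therefore stood 3.49 to 5.33 times above that of SMC2, its partner in the core, in each library. The mean transcript length behind SMC4, which the files give as 2455 to 3075 bases, was shorter than its longest annotated transcript of 5471 bases. The summed TPM of the 3 condensin I subunits was 1.23 to 1.81 times that of the 3 condensin II subunits.

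**Figure D1:**
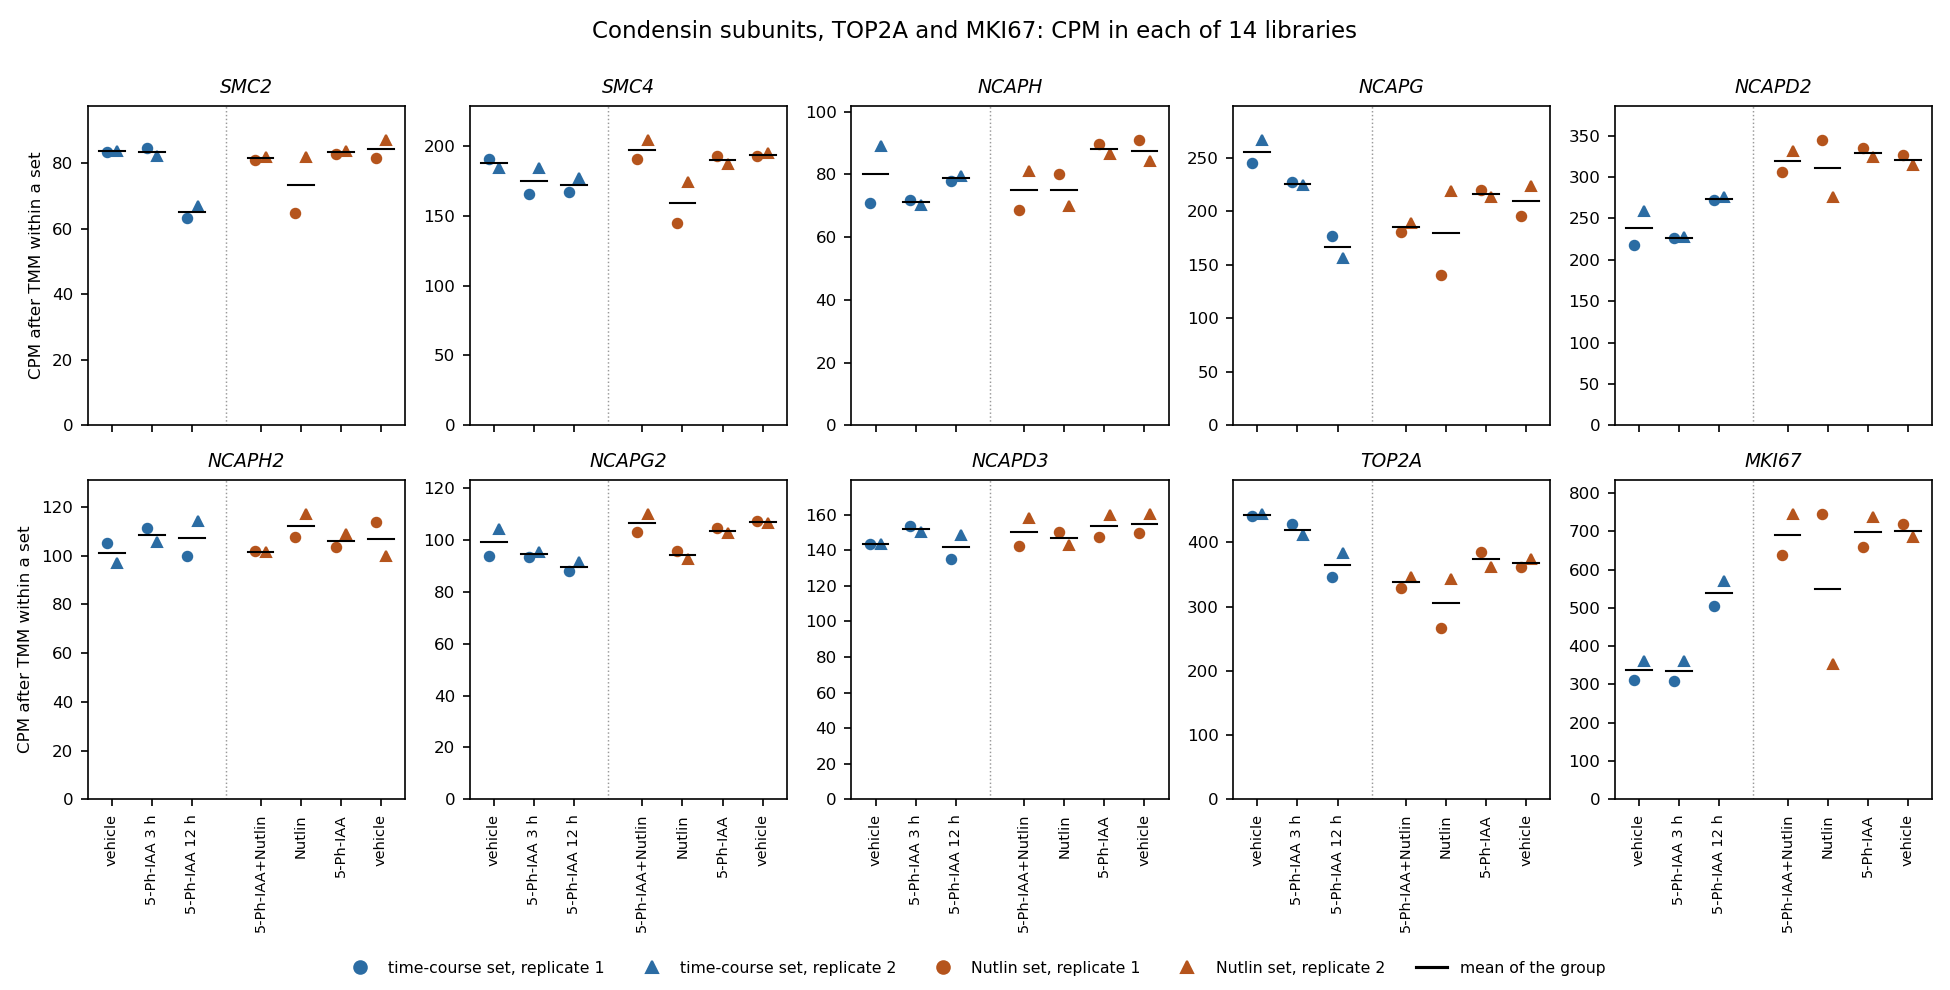
CPM (expected counts scaled to a common library size by TMM within a set, on a linear axis from 0) of the 10 genes in each library, with the time-course set left of the dotted line, the Nutlin set right of it, circles for replicate 1, triangles for replicate 2 and bars for group means. NCAPG, SMC2 and TOP2A were lowest and MKI67 highest at 12 h of 5-Ph-IAA within the time course, and the Nutlin replicates of MKI67 lay at 744 and 354 CPM.

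After 12 h of 5-Ph-IAA, MKI67 mRNA rose by a factor of 1.59, and NCAPG, SMC2 and TOP2A fell to 0.657, 0.773 and 0.821 of the vehicle level. The other 6 genes, among them every subunit particular to condensin II, did not pass the test. That is 4 of 10 genes called, where 11.4% of the 19049 genes tested were called (3.39% higher and 7.97% lower). The median log2 fold change was -0.08 over the 10 genes, against 0.00 over all genes tested. All tests are edgeR quasi-likelihood tests on rounded expected counts, adjusted by Benjamini-Hochberg over all genes tested with a threshold of 0.05, and CPM (expected counts scaled to a common library size) compare libraries of 1 set only. The labels do not say whether replicates came from separate cultures, so a p measures only the spread between these libraries. In bulk RNA, fewer cells in a phase of the cycle and less RNA per cell cannot be told apart.

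Of the shared core, SMC2, an ATPase subunit, had 83.5 and 83.8 CPM in the vehicle libraries, 84.7 and 82.2 CPM at 3 h and 63.4 and 66.8 CPM at 12 h. The 12 h libraries were the 2 lowest and did not overlap the other 4. The log2 fold change of 12 h over vehicle was -0.37 ± 0.09 (SE, n = 2 a group, edgeR adjusted p = 0.0198), and that of 12 h over 3 h was -0.37 ± 0.09 (adjusted p = 0.0269). SMC4, its ATPase partner, had 191 and 184 CPM in vehicle, 165 and 184 CPM at 3 h and 167 and 177 CPM at 12 h. Both 12 h values lay below both vehicle values, by less than the test could call (-0.13 ± 0.08, adjusted p = 0.351). In the fit with the GC trend removed, given below, SMC4 was at 0.25 (adjusted p = 0.109), so its direction is not settled.

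Within condensin I the subunits did not move together. NCAPG, a HEAT-repeat subunit, had 245 and 267 CPM in vehicle, 227 and 225 CPM at 3 h and 177 and 156 CPM at 12 h. Each time point lay wholly below the one before it. The 12 h libraries differed from vehicle by -0.61 ± 0.08 on the log2 scale (adjusted p = 0.000939) and from 3 h by -0.43 ± 0.08 (adjusted p = 0.00806), whereas 3 h differed from vehicle by -0.18 ± 0.08 without passing (adjusted p = 0.762). NCAPD2, the other HEAT-repeat subunit, had 218 and 258 CPM in vehicle, 226.7 and 226.9 CPM at 3 h and 272 and 276 CPM at 12 h. Its 12 h values were the 2 highest, and neither 12 h over vehicle (0.20 ± 0.08, adjusted p = 0.153) nor 12 h over 3 h (0.27 ± 0.08, adjusted p = 0.0683) passed. Over 14 alternatives the first passed in 2, without replicate 2 of the vehicle (0.33, adjusted p = 0.015) and with the length trend removed (0.25, adjusted p = 0.0442), with a range of 0.015 to 0.611. The second passed in 6 of 14, among them DESeq2 (0.29, adjusted p = 0.00878) and the fit without either vehicle library (adjusted p = 0.0109 and 0.0121), with a range of 0.00878 to 0.272. NCAPH, the kleisin that closes the ring, had 70.9 and 89.0 CPM in vehicle, 71.9 and 70.4 CPM at 3 h and 78.0 and 79.5 CPM at 12 h, so the vehicle libraries spanned both treated groups.

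No subunit particular to condensin II passed the test at 12 h. NCAPH2, its kleisin, had 105 and 97.0 CPM in vehicle, 111 and 106 CPM at 3 h and 99.8 and 114 CPM at 12 h. NCAPG2 had 94.1 and 104 CPM in vehicle, 93.7 and 95.3 CPM at 3 h and 88.1 and 91.5 CPM at 12 h. NCAPD3 had 143.3 and 143.4 CPM in vehicle, 154 and 150.3 CPM at 3 h and 135 and 149 CPM at 12 h. NCAPG2 was lowest at 12 h without passing (-0.15 ± 0.09, adjusted p = 0.335), and the 12 h and vehicle libraries overlapped for NCAPH2 (0.06 ± 0.09, adjusted p = 0.756) and NCAPD3 (-0.03 ± 0.08, adjusted p = 0.898).

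TOP2A had 441 and 444 CPM in vehicle, 428 and 412 CPM at 3 h and 346 and 383 CPM at 12 h. The 3 groups did not overlap and stood in that order. The difference of 12 h from vehicle was -0.29 ± 0.07 on the log2 scale (adjusted p = 0.0183), and that of 12 h from 3 h, -0.21 ± 0.07, did not pass (adjusted p = 0.0823). The second passed in 5 of 14 alternatives, which were DESeq2, no filter on low counts, and the fits without either vehicle library or without replicate 2 of 12 h (adjusted p of 0.0295 to 0.0412), and its adjusted p was 0.933 with the GC trend removed.

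MKI67 went the other way. It had 313 and 362 CPM in vehicle, 308 and 362 CPM at 3 h and 506 and 570 CPM at 12 h. The first 2 groups spanned the same range, and both 12 h libraries lay above it. The difference of 12 h was 0.67 ± 0.09 on the log2 scale from vehicle (adjusted p = 0.00122) and 0.68 ± 0.09 from 3 h (adjusted p = 0.002). Between 12 h and 3 h, 3 of the 10 genes were called (MKI67, NCAPG and SMC2), where 8.14% of all genes tested were.

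The mitochondrial share of counts was 0.163% and 0.215% in vehicle, 0.167% and 0.178% at 3 h and 0.251% and 0.291% at 12 h, so it too was highest in both 12 h libraries. Its part in the changes of MKI67, NCAPG, SMC2 and TOP2A was not tested.

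**Figure D2:**
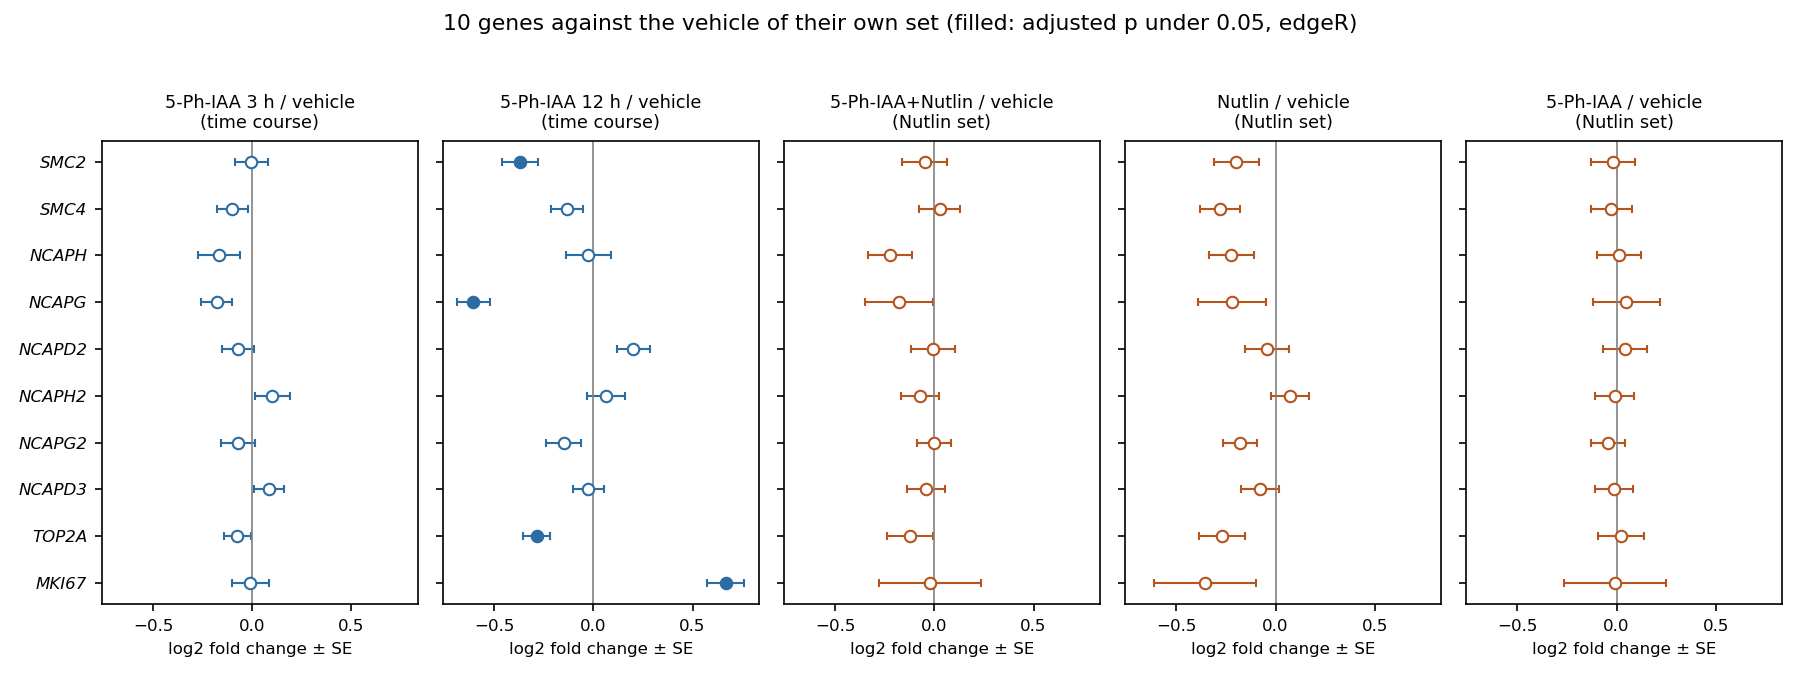
Log2 fold change ± SE (edgeR, n = 2 libraries a group) of each gene against the vehicle of its own set, on a shared linear axis, with filled circles for an adjusted p under 0.05. Only the 12 h comparison has filled circles, with MKI67 at 0.67, NCAPG at -0.61, SMC2 at -0.37 and TOP2A at -0.29.

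GC content moved with the 12 h result across all genes. With tested genes divided into 4 equal parts by GC content of the longest transcript, the part with the lowest (up to 42.3%) had a median log2 fold change of -0.30 at 12 h, with 1117 genes called lower and 28 higher, and the part with the highest had 0.15, with 34 lower and 238 higher. SMC4 (37.3%), SMC2 (37.6%), NCAPG (39.0%), TOP2A (39.1%) and NCAPG2 (41.4%) are in the lowest part, and MKI67 (48.3%) is in the second. With the GC trend removed from each library, a fit chosen after seeing the data, the 12 h change was 0.00 for SMC2 (adjusted p = 0.998) and 0.02 for TOP2A (adjusted p = 0.928), both on the log2 scale. NCAPG kept its call at -0.30 (adjusted p = 0.0381) and MKI67 at 0.63 (adjusted p = 0.00317), while 899 genes were called in all (441 higher and 458 lower), against 2163 (645 higher and 1518 lower) without the correction. The transcripts of MKI67 are long (12678 bases), and with the length trend removed instead, MKI67 was at 0.66 and still called, and 977 genes were called higher and 1468 lower. Without replicate 1 of 12 h, SMC2 (-0.31) and TOP2A (-0.20) lost their calls, both at an adjusted p of 0.197, and the fit of all 14 libraries took MKI67 to 0.0651. Over 14 alternatives the adjusted p was 0.00469 to 0.998 for SMC2, 0.00149 to 0.928 for TOP2A, 1.41e-10 to 0.0381 for NCAPG and 2.38e-13 to 0.0651 for MKI67.

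**Figure D3:**
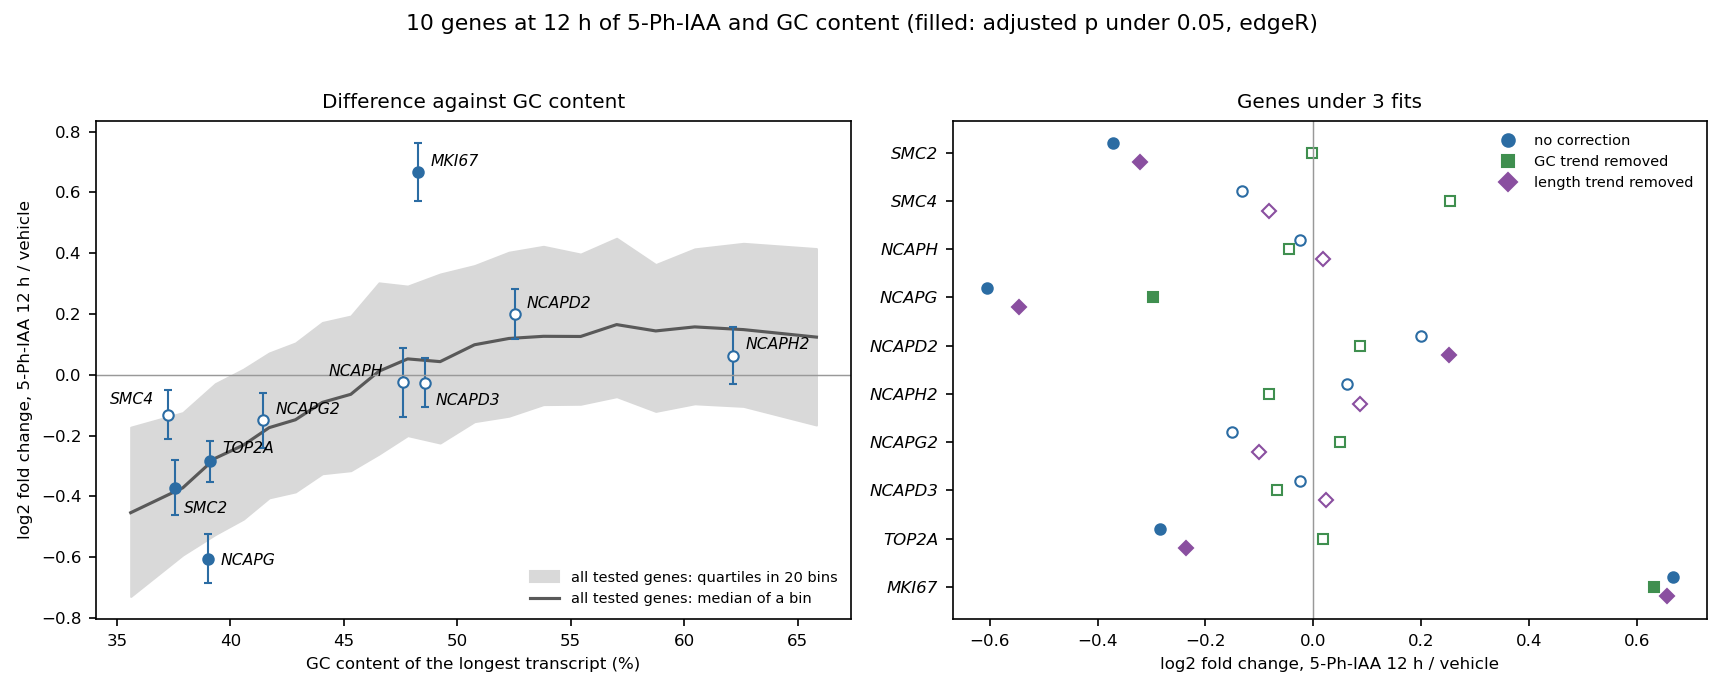
Left, log2 fold change of 12 h of 5-Ph-IAA over vehicle (± SE) against GC content of the longest transcript, with the median (line) and quartiles (grey) of all tested genes in 20 bins of GC content; right, the same difference without correction and with the GC or the length trend removed (filled: adjusted p under 0.05). SMC2 and TOP2A lie near the median of genes of their GC content and move to 0.00 and 0.02 with the trend removed, whereas MKI67 stays at 0.63 and NCAPG at -0.30.

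The balance between genes within a library, as a ratio of TPM, also differed at 12 h. The ratios pair MKI67 (GC content 48.3%) with TOP2A (39.1%), NCAPG (39.0%) with NCAPD2 (52.5%), and SMC4 (37.3%) with SMC2 (37.6%). Of these genes, NCAPD2 and SMC4 were not called at 12 h. The part of GC content and transcript length in the ratios was not tested. MKI67 stood at 0.338 and 0.341 of the TPM of TOP2A in vehicle, 0.380 and 0.469 at 3 h and 0.653 and 0.788 at 12 h. NCAPG stood at 1.10 and 1.20 times the TPM of NCAPD2 in vehicle, 1.04 and 1.04 times at 3 h and 0.711 and 0.613 times at 12 h. In both TPM ratios all 3 groups were apart, and no test was run on them. For MKI67 the vehicle and 3 h libraries spanned the same range in CPM. The mean transcript length behind its TPM was 10522 and 11605 bases in vehicle and 9722 and 9318 bases at 3 h. The step of MKI67 over TOP2A from vehicle to 3 h is therefore not read as a change. The ratio of SMC4 to SMC2 was 4.26 and 3.63 in vehicle, 3.49 and 4.30 at 3 h and 5.03 and 5.33 at 12 h, where both libraries were highest. In CPM both genes were lower at 12 h than in vehicle. The mean transcript length of SMC4 was 2843 and 3075 bases in vehicle and 2640 and 2455 bases at 12 h. In the vehicle of the Nutlin set the ratio of MKI67 to TOP2A was 0.917 and 0.911, and MKI67 itself had 39.7 and 47.2 TPM there, against 19.3 and 21.5 TPM in the time-course vehicle. The ratio of NCAPG to NCAPD2 was 0.621 and 0.801 in the vehicle of the Nutlin set, near the 12 h values of the time course. The ratio of SMC4 to SMC2 was 4.15 and 4.61 there, below both 12 h values. Set and vehicle cannot be told apart in these differences.

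**Figure D4:**
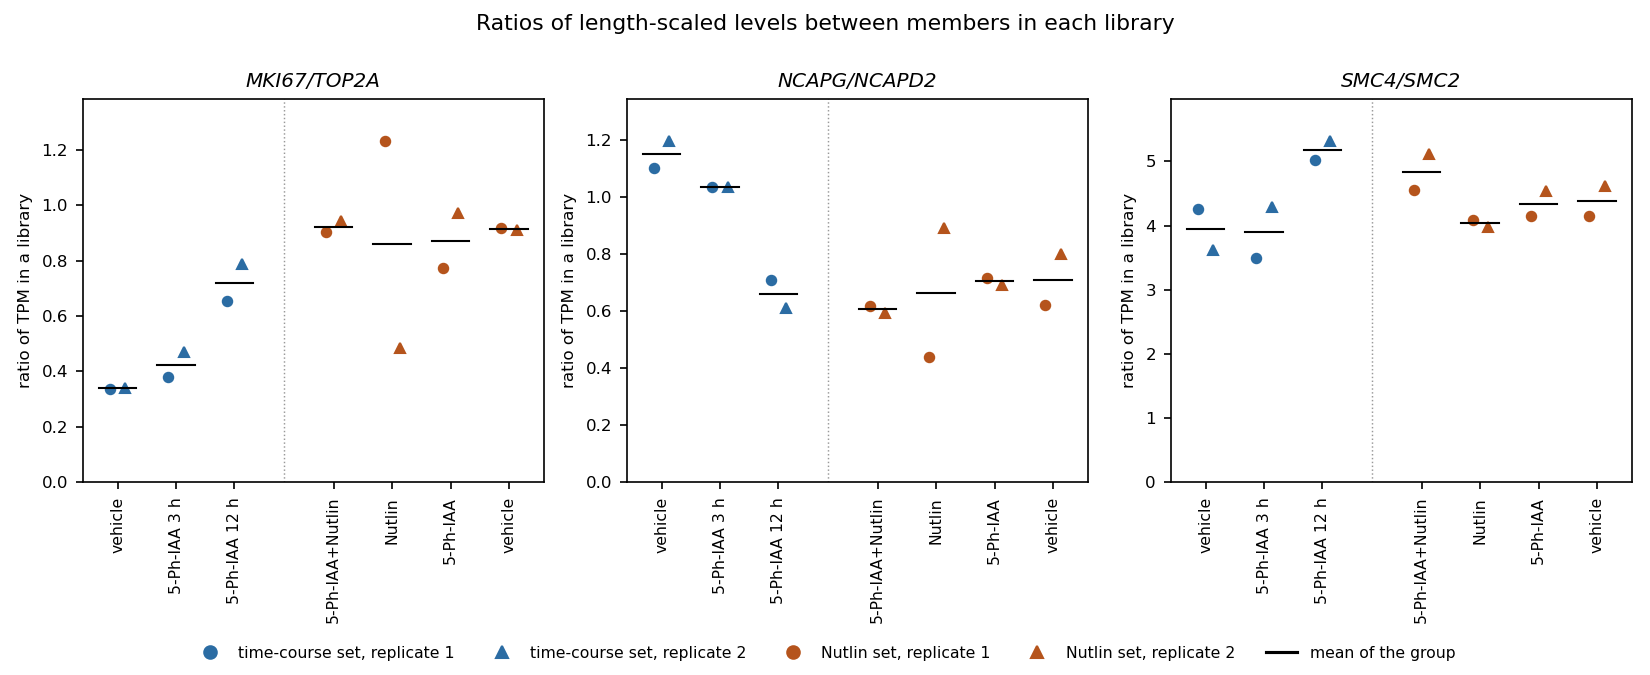
Ratio of TPM between pairs of genes in each library (linear axes from 0), with the time-course set left of the dotted line, circles for replicate 1, triangles for replicate 2 and bars for group means. MKI67 relative to TOP2A is 0.338 and 0.341 in vehicle and 0.653 and 0.788 at 12 h, and the Nutlin replicates lie at 1.23 and 0.486.

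At 3 h none of the 10 genes was called in either set. In the time-course set 0.0682% of genes were called at 3 h, and the largest differences among the 10 were those of NCAPG, above, and NCAPH (-0.17 ± 0.11, adjusted p = 0.852). In the Nutlin set 5-Ph-IAA alone gave no call among the genes tested (0%), with 245 genes at an unadjusted p under 0.05 and 1 call by DESeq2. There MKI67 had 658 and 737 CPM with 5-Ph-IAA, against 719 and 685 CPM in vehicle, and NCAPG had 220 and 214 CPM with 5-Ph-IAA, against 195 and 224 CPM in vehicle. Both pairs of groups overlapped, and the 10 log2 fold changes lay between -0.04 and 0.05. The difference between the 2 sets in the 3 h response, tested in 1 model, was called for none of the 10 genes and for 0.0636% of all genes. It was -0.22 ± 0.11 for NCAPG (adjusted p = 0.796) and 0.01 ± 0.12 for MKI67 (adjusted p = 0.999).

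Nutlin called none of the 10 genes, where 0.464% of genes tested were called, and the Nutlin replicates lay far apart for MKI67 and NCAPG. The Nutlin and vehicle libraries did not overlap for 4 of the 10 genes (SMC4, NCAPH, NCAPG2 and TOP2A), where 36.1% of genes tested did not, so the share is near the background. These 4 had log2 fold changes of -0.28, -0.22, -0.18 and -0.27, with adjusted p of 0.385 to 0.519. MKI67 had 638 and 745 CPM with 5-Ph-IAA and Nutlin, 744 and 354 CPM with Nutlin, 658 and 737 CPM with 5-Ph-IAA and 719 and 685 CPM in vehicle. Only replicate 2 of Nutlin was low and the fitted difference from vehicle of -0.36 ± 0.26 (adjusted p = 0.669) is an average over 2 unlike libraries. Without replicate 1 of Nutlin the difference was -0.98, and without replicate 2 it was 0.08, the ends of its range over 16 alternatives. Each of these 2 fits has 1 Nutlin library, so its p does not measure the spread between Nutlin libraries.

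NCAPG had 181 and 189 CPM with 5-Ph-IAA and Nutlin, 140.1 and 219 CPM with Nutlin, 220 and 214 CPM with 5-Ph-IAA and 195 and 224 CPM in vehicle. Here replicate 1 was the low Nutlin library, and TOP2A (267 and 343 CPM with Nutlin, against 362 and 374 CPM in vehicle) and SMC2 (65.0 and 81.8 CPM with Nutlin, against 81.7 and 87.1 CPM in vehicle) were low in the same library. Without replicate 2 of Nutlin, log2 fold changes from vehicle were -0.58 for NCAPG, -0.46 for TOP2A, -0.42 for SMC4 and -0.38 for SMC2. Without replicate 1 they were 0.07, -0.10, -0.15 and -0.04. Each of these fits has 1 Nutlin library, so it cannot show whether the differences repeat. Replicate 1 also had low counts of genes of low GC content (median -0.19 from vehicle, on the log2 scale, over 2767 genes; 0.07 in replicate 2). Replicate 2 had low counts of genes with transcripts of 10000 bases or more (median -0.22 over 430 genes; -0.06 in replicate 1) and a mitochondrial share of 0.189% of counts, against 0.311% in replicate 1. The part of these properties in the values of the 10 genes was not tested. In the same libraries CDKN1A had 537 and 519 CPM with Nutlin, against 200.1 and 197 CPM in vehicle, and MDM2 had 348 and 411 CPM with Nutlin, against 246 and 276 CPM in vehicle.

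**Figure D5:**
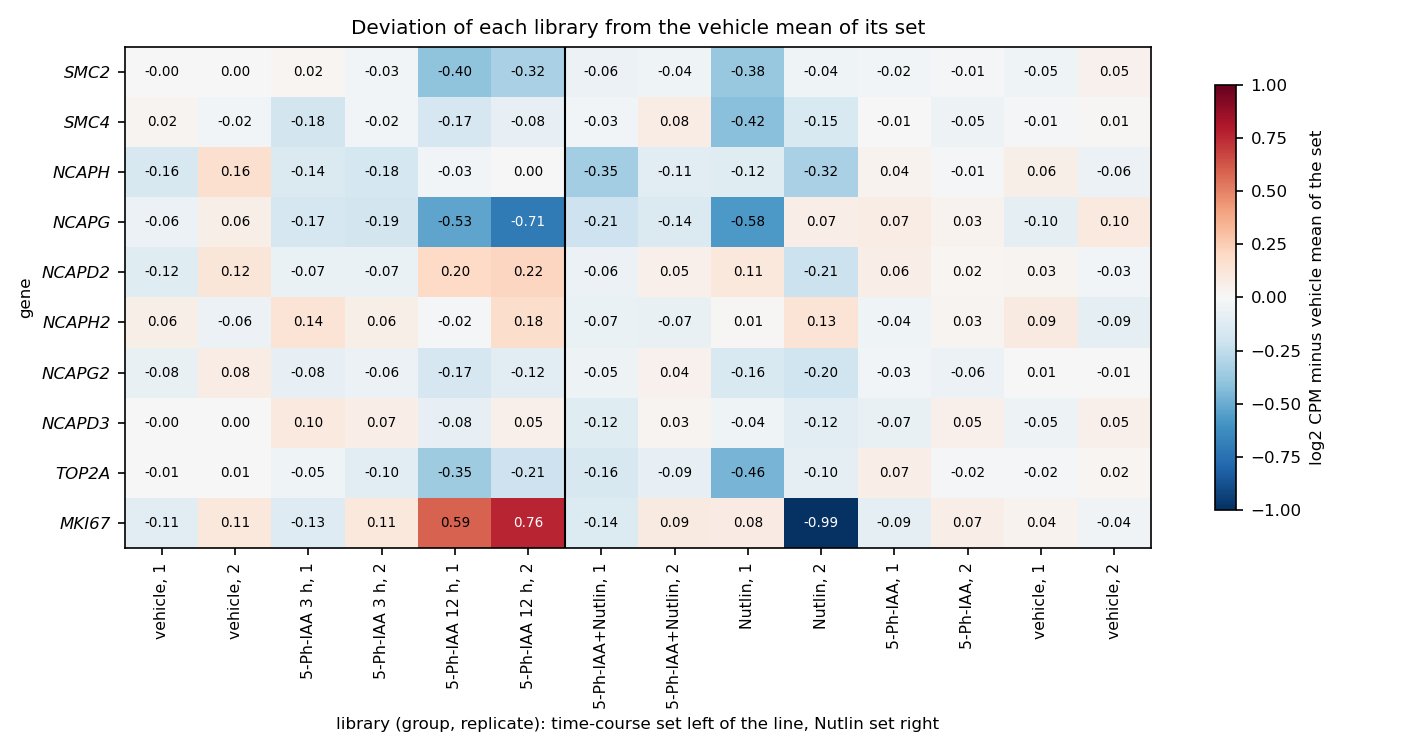
Log2 CPM of each gene in each library minus the vehicle mean of its set, in colour and digits, with the time-course set left of the line and the Nutlin set right. At 12 h both libraries are low for SMC2, NCAPG and TOP2A and high for MKI67, replicate 1 of Nutlin is low for SMC2, SMC4, NCAPG and TOP2A, and replicate 2 of Nutlin is low for MKI67 (-0.99).

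With 5-Ph-IAA and Nutlin together none of the 10 genes was called, where 0.325% of genes tested were. NCAPH had 68.8 and 80.9 CPM with both agents, against 90.9 and 84.1 CPM in vehicle, and its groups did not overlap (-0.23 ± 0.11, adjusted p = 0.726). TOP2A (329 and 347 CPM with both agents, against 362 and 374 CPM in vehicle) was likewise below vehicle without passing (-0.12 ± 0.12, adjusted p = 0.916). So was NCAPG, with the values above (-0.18 ± 0.17, adjusted p = 0.916). The share of all genes without overlap was not taken for this comparison, so the lack of overlap has no background beside it. The interaction, which asks whether the response to Nutlin differs with 5-Ph-IAA, was called for none of the 10 and for no gene tested (0%; 623 genes at an unadjusted p under 0.05, 1 call by DESeq2). It was 0.34 ± 0.37 for MKI67 (adjusted p = 0.989) and 0.33 ± 0.15 for SMC4 (adjusted p = 0.989). Without replicate 1 of Nutlin, which leaves 1 library in that group, the interaction of MKI67 was 0.97. Over 15 alternatives it ranged from -0.09 to 0.97, so 1 library decides it.

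Other genes of chromosome condensation were mixed at 12 h. A list of 28 regulators and partners held kinases, the chromosomal passenger complex, Ki-67 partners, heterochromatin and high-mobility-group proteins. Of these 28, 3 rose and 6 fell, with a median log2 fold change of 0.02. Among all genes tested, 3.39% were called higher and 7.97% lower. CDK1, the kinase that phosphorylates condensin at mitotic entry, fell (241 CPM at 12 h, against 341 CPM in vehicle, means of n = 2; -0.50 ± 0.07, adjusted p = 0.000932). PPP1CC, a catalytic subunit of the protein phosphatase 1 that Ki-67 recruits to chromosomes, fell (254 CPM at 12 h, against 417 CPM in vehicle; -0.71 ± 0.07, adjusted p = 0.000229). NCL, the nucleolar protein nucleolin, rose (710 CPM at 12 h, against 495 CPM in vehicle; 0.52 ± 0.06, adjusted p = 0.000555). PLK1 and HMGA1 were the others that rose, and CBX3, TOP2B, CCNB1 and NPM1 the others that fell. With the GC trend removed, 2 rose (NCL and CBX5) and 1 fell (PPP1CC), and CDK1 was at -0.10 (adjusted p = 0.423), and without replicate 2 of 12 h 1 rose and 3 fell.

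Of 25 genes with expression in G2 and mitosis, 4 rose and 11 fell at 12 h, with a median log2 fold change of -0.17. Among all genes tested at 12 h, 3.39% were called higher and 7.97% lower. TTK, a kinase of the spindle checkpoint, was at 82.2 CPM at 12 h, against 153 CPM in vehicle (-0.90 ± 0.08, adjusted p = 0.000171), and ASPM, a spindle pole protein, at 85.7 CPM, against 149 CPM (-0.82 ± 0.11, adjusted p = 0.000779). FOXM1, a transcription factor that acts on genes of G2, rose to 60.6 CPM at 12 h, against 38.5 CPM in vehicle (0.64 ± 0.11, adjusted p = 0.00336), alongside TPX2, CDC20 and KIF20A. The others that fell were CCNA2, KIF20B, ANLN, DLGAP5, HMMR, CEP55, ECT2, CKAP2 and MYBL2. With the GC trend removed 3 rose (FOXM1, TPX2 and CENPF) and 3 fell (TTK, ASPM and MYBL2). CENPF was not called without that correction, and CDC20 (0.19, adjusted p = 0.151) and KIF20A (0.25, adjusted p = 0.0569) lost their calls. The counts also moved without replicate 2 of 12 h, a fit with 1 library in that group. No gene of either list was called at 3 h in either set, with Nutlin, or with 5-Ph-IAA and Nutlin. The Nutlin count rests on its libraries, since genes of both lists were called when either Nutlin library was left out. Such a fit has 1 Nutlin library, and calls over all genes also varied widely with 1 library left out. These calls are therefore not read as a result about the lists. With 5-Ph-IAA and Nutlin, 2 of the 28 were called lower when only the compared groups were fitted or either Nutlin library was left out. Among all genes tested, 0.464% were called with Nutlin and 0.325% with 5-Ph-IAA and Nutlin. Of 15 p53 targets, 7 rose with Nutlin and 5 with 5-Ph-IAA and Nutlin, led by SESN2, CDKN1A and GADD45A without 5-Ph-IAA, and none fell. With 1 library left out, 2 to 12 rose with Nutlin and 2 to 11 with both agents. At 12 h of 5-Ph-IAA 1 p53 target rose and 5 fell, against 0 and 2 with the GC trend removed, without replicate 2 of the vehicle or without replicate 1 of 12 h.

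Across the 14 libraries, log2 CPM relative to the vehicle mean of the set was described by Pearson's r, with no test, since libraries of a group and the GC and length composition of a library are shared by all genes in it. SMC2 followed TOP2A (r = 0.91) and NCAPG (r = 0.90), and MKI67 followed NCAPD2 (r = 0.87) and ran against NCAPG (r = -0.67). Pairs within 1 complex ran from 0.90 (SMC2 and NCAPG) to -0.67 (SMC2 and NCAPD2), with 0.65 between SMC2 and SMC4 and -0.52 between NCAPH2 and NCAPG2. Among 9708 other genes, those most like MKI67 were SPEN (r = 0.99), PRRC2C (0.98) and TRRAP (0.98), each with a longest transcript of over 10000 bases, as for MKI67. SPEN was at 0.58 and 0.68 at 12 h and -0.03 and -1.02 with Nutlin, as log2 difference from vehicle, so it too was high at 12 h and low in replicate 2 of Nutlin. Those most like TOP2A were PLK4 (0.97), BRWD1 (0.96) and RANBP2 (0.94), and RANBP2 (0.96), ARL14EP (0.95) and KNL1 (0.94) were most like the mean of SMC2 and SMC4. The longest transcripts of BRWD1 (12929 bases) and RANBP2 (11711 bases) are also over 10000 bases, so such length was not particular to the genes like MKI67. Over 430 other genes with transcripts of 10000 bases or more, the median at 12 h was 0.01 and 0.02 from vehicle. The mean of the condensin I subunits was most like KCTD3 (0.92), LDHA (0.89) and TENT4B (0.89). That of the condensin II subunits was most like ZNF761 (0.83), SNRK (0.82) and MGAT5 (0.81). Each mean averages subunits that in part ran against each other (NCAPG and NCAPD2, r = -0.61), so it need not follow any subunit.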

How the data were processed

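The authors deposited 1 RSEM gene table per library, with expected counts, TPM and mean transcript length in bases. Per the submitters' processing notes, STAR 2.7.10b, RSEM and DESeq2 1.48.1 were used with hg38; the annotation release and the use of strand in counting are not given in the sources used here. Libraries were total RNA depleted of ribosomal RNA, per the labels' protocols. The deposited FPKM and effective lengths were not used here.

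The deposited expected counts were rounded to whole numbers and filtered (filterByExpr, minimum count 10, minimum total 15). They were scaled by TMM and tested with edgeR 4.0.16 quasi-likelihood tests (limma 3.58.1, R 4.3.3), with 1 coefficient per group and Benjamini-Hochberg adjustment over all tested genes at 0.05, two-sided. The time-course set (6 libraries, 19049 genes), the Nutlin set (8, 17251 genes) and the 3 h libraries of both sets (8, 18873 genes) were fitted separately, with biological coefficients of variation of 0.176, 0.114 and 0.12. Standard errors were taken as the size of the log2 fold change over the root of F. CPM used TMM library sizes, with a prior count of 2 on the log scale. TPM values were used as the authors deposited them.

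Positions, GC content (known for 89.6% of tested genes) and overlapping genes came from GENCODE 29. SMC4, NCAPG, NCAPD2, NCAPD3 and TOP2A overlap other annotated genes, and reads could be shared there. Genes and lists were chosen with earlier results of these data known. Up to 3 passing genes of a list were named by p, the others in a list after their values were seen; like genes were the 3 with the highest r. Alternatives were DESeq2 1.42.0, RLE scaling, no filter, the replicate number as a block, other sets of libraries and each library left out. With 1 library left out its group holds 1 library, and the p then rests on the spread within the other groups. GC and length trends (lowess, span 0.3) were removed as alternatives chosen after seeing the data. The test was checked on simulated data. Python 3.11.15 made the tables.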

Additional observations from a re-analysis of the deposited data

Results flagged for a closer look

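Differences between the 2 times of 5-Ph-IAA were called for 3 of the 10 genes, with the test run on the difference itself. MKI67 was higher at 12 h than at 3 h by 0.68 on the log2 scale, and NCAPG and SMC2 were lower, at -0.43 and -0.37. For each of the 3 genes both 12 h libraries lay beyond both 3 h libraries. The same held for NCAPH, NCAPD2, NCAPG2, NCAPD3 and TOP2A, which were not called, so it adds nothing to the calls. The share of all genes without overlap was not taken for this comparison. With the GC trend removed, NCAPG (-0.20, adjusted p = 0.148) and SMC2 (-0.09, adjusted p = 0.613) no longer passed in edgeR's quasi-likelihood test, and MKI67 did (0.65, adjusted p = 0.00395). In the fit of all 14 libraries MKI67 (0.67, adjusted p = 0.0807) and NCAPG (-0.43, adjusted p = 0.0851) did not pass. SMC2 did not pass without replicate 1 of 3 h, replicate 2 of 3 h or replicate 1 of 12 h (adjusted p = 0.164, 0.0897 and 0.207). Over 14 alternatives the call was kept in 13 for MKI67, 12 for NCAPG and 10 for SMC2.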

How the results depend on the processing

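Of 1200 alternative values for the 10 genes, 1056 kept their direction and side of the threshold or moved by less than the replicate spread. Most of the 1200 belong to results that were not called, so this count says little about the calls. Among results that were called, 14 values lost the call and 1 more lost it with a change of sign. At 12 h against vehicle, TOP2A turned to 0.0178 (adjusted p = 0.928) with the GC trend removed. Among genes called in neither fit, SMC4 moved to 0.25, NCAPG2 to 0.05 and NCAPH2 to -0.08, each with a change of sign. NCAPG kept its call in 14 of 14 alternatives (-0.70 to -0.30) and MKI67 in 13, with the exception at an adjusted p of 0.0651 for all 14 libraries in one fit. In the 12 h against vehicle comparison, genes called were 899 after GC correction and 1391 with only the compared groups fitted, against 2163, and 961 to 2446 with 1 library left out. At 3 h against vehicle there were 13 calls, and 51 with DESeq2, 193 with no filter, 25 after length correction and 23 to 283 with 1 library left out. At 12 h against 3 h there were 1551, and 2448 with no filter, 837 after GC correction (368 higher and 469 lower, against 448 and 1103) and 612 to 2315 with 1 library left out. For 5-Ph-IAA with Nutlin there were 56, and 105 with DESeq2, 268 with no filter, 95 after GC correction, 392 with only the compared groups, 88 in one fit and 21 to 395 with 1 library left out. For Nutlin there were 80, and 148, 405, 133 and 27 under DESeq2, no filter, GC correction and compared groups only, and 25 to 2131 with 1 library left out. For 5-Ph-IAA at 3 h in that set there were 0, and 1 with DESeq2, 53 with no filter, 9 with compared groups and 0 to 1 with 1 library left out. The interaction had 0, and 1 with DESeq2, 57 with no filter and 0 to 1035 with 1 library left out. The 3 h difference between sets had 12, and 47 with DESeq2, 177 with no filter, 3 in one fit and 5 to 145 with 1 library left out. The causes of these moves were not tested. Replicate numbers did not pair the libraries (correlations of -0.09 to 0.05 over 9 pairs); with the replicate block there were 45 calls at 3 h, 6 for the difference between sets, and 2489 at 12 h, where it changed no call of the 10 genes against vehicle and added NCAPD2 against 3 h (0.28, adjusted p = 0.029). Likeness moved little: without replicate 2 of 12 h, r was 0.961 for RANBP2, 0.916 for KCTD3, 0.826 for ZNF761, 0.970 for PLK4 and 0.987 for SPEN, and without replicate 2 of Nutlin 0.960, 0.920, 0.862, 0.971 and 0.980. Each group has 2 libraries, and replicate 2 of 12 h holds 3535163 counts, which limits the precision of its values.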
